A study of Mus musculus with 11 samples.

Results

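Cells of the mouse pancreatic acinar line 266-6 that had received both Arid1a siRNAs and EGF (3 libraries) were compared with cells that had received neither (2 libraries). These 5 of the 11 libraries of the series were taken by their labels. The treated cells, siArid1a_EGF, carried Arid1a siRNAs at 25 nM for 48 h, were starved of serum overnight and then had EGF at 40 ng/ml for 8 h. The controls, siCtrl, carried the non-targeting siRNA NT5 for 48 h, were starved in the same way and had the vehicle, 0.1% BSA, for 8 h. Cells with EGF and the control siRNA (siCtrl_EGF, 3 libraries) and with Arid1a siRNAs and vehicle (siArid1a, 3 libraries) supply the single treatments that are set beside the net change of each gene. All groups share 1 cell line, a transfection and the starvation. The label genotype "Arid1a-knockdown" stands for lowered RNA, since no allele was deleted. The Arid1a siRNAs are not given by sequence, so effects of the siRNAs other than through Arid1a cannot be told apart from those of lower Arid1a. Whether the replicates are separate cultures is not stated in the labels, so p-values reflect the spread among these libraries alone, and that spread may be technical.

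EGF binds its receptor and drives the RAS to ERK kinase cascade, which switches on transcription factors of the ETS and AP-1 families together with the phosphatases and Sprouty proteins that dampen the cascade again. ARID1A binds DNA as part of BAF, a chromatin remodeller of the SWI/SNF family that moves nucleosomes and keeps enhancers open. Pancreatic acinar cells make digestive enzymes under the control of factors such as PTF1A, RBPJL, NR5A2 and MIST1, and under sustained growth factor signalling they can lose these enzymes and take up features of duct cells. The question here is the state that both treatments leave together, and for which genes one treatment offsets the other.

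Counted reads ranged from 14059719 to 19773007 in the controls and from 11947581 to 14143225 after both treatments, and 13343 of 23284 genes had enough reads to be tested. Levels are CPM, reads scaled to a common library size by TMM, and can be compared between samples, not between genes. Changes are edgeR log2 fold changes ± standard error with Benjamini-Hochberg adjusted p-values over all genes tested, and a gene was called at an adjusted p under 0.05. Acinar RNAs were plentiful in every library: Cpa1 had 6451 to 16583 reads and Cela1 16167 to 37821, while the pancreatic amylase gene Amy2a5 had 0 reads throughout. Since the counting settings are not given, absent Amy2a5 RNA and reads left uncounted cannot be told apart. Of markers of other cell types, Ins1, Ins2 and the endothelial Cdh5 had 0 reads in all libraries, and the leukocyte marker Ptprc had at most 4. Summed levels of the fibroblast list were 728 to 735 CPM in the controls and 949 to 1019 CPM after both treatments, and those of the islet list 802 to 857 and 929.8 to 982 CPM. The endothelial list summed to 66.1 to 69.5 and 76.8 to 81.7 CPM, and the immune list to 9.35 to 10.2 and 13.2 to 13.5 CPM. The part of these levels in the results was not tested. In RNA from whole cultures, fewer cells of a kind and less RNA per cell cannot be told apart.

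Arid1a stood at 292 and 399.9 CPM in the controls and 145, 122 and 152 CPM after both treatments, a 2.47-fold fall (log2 -1.31 ± 0.13, edgeR adjusted p = 1.08e-05). Every doubly treated library lay below both controls. With the siRNAs alone the change was log2 -1.25, and with EGF alone log2 -0.25, which did not pass. Among 25 genes of SWI/SNF subunits, 3 rose, 6 fell and 16 did not pass, with a median log2 change of -0.07. By share, 12% rose and 24% fell, beside 22.0% and 21.3% of all genes tested. The lowest called after Arid1a itself were Dpf2 at log2 -0.70 and Bcl7a at log2 -0.66, both accessory subunits. The ATPase gene Smarca4 (log2 0.16, edgeR adjusted p = 0.0489) and Arid1b, the alternative to Arid1a in the complex (log2 -0.26, edgeR adjusted p = 0.0358), only just passed. Without siCtrl replicate 1 Smarca4 stood at log2 0.06 (edgeR adjusted p = 0.537), and without siCtrl replicate 2 Arid1b stood at log2 -0.19 (edgeR adjusted p = 0.205). The Smarca4 call ended when any one of 8 libraries was left out, and that of Arid1b when any one of 4 was.

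Both treatments together changed a large part of the transcriptome. Of 13343 genes, 5768 were called (43.2%), 2929 higher (22.0%) and 2839 lower (21.3%), and 924 (6.92%) moved by more than 2-fold, 497 up (3.72%) and 427 down (3.20%). With EGF alone 4744 genes were called (35.6%; 16.8% higher, 18.8% lower), and with the siRNAs alone 5190 (38.9%; 18.8% higher, 20.1% lower). All of these comparisons share the 2 control libraries. The median log2 net change over all genes was -0.0031, and libraries of the groups did not overlap for 59.6% of the genes.

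The largest net rises were taken among called genes whose log2 CPM averaged 3 or more and whose libraries did not overlap between groups. They included genes of the matrix, of the cell surface and of ERK signalling. Has2, which makes hyaluronan, stood at 4.91 and 5.37 CPM in the controls and 65.6, 58.3 and 66.2 CPM after both treatments (log2 3.63 ± 0.14, edgeR adjusted p = 2.7e-10). Its doubly treated libraries lie far above the controls. Serpinf2, which encodes the plasmin inhibitor alpha-2-antiplasmin, went from 16.5 and 14.6 to 157, 148 and 157 CPM, 9.84-fold (log2 3.299 ± 0.10, edgeR adjusted p = 2.7e-11). Gprc5a, an orphan receptor gene, rose 10.4-fold, from 5.46 and 4.94 to 55.2, 50.3 and 58.04 CPM. The Sprouty gene Spry4, the ETS factor gene Etv4 and the collagen gene Col15a1 rose 9.74-, 8.94- and 9.698-fold. Then came the ceramidase gene Acer2 (log2 2.94 ± 0.19), the neuropeptide gene Npy (log2 2.803 ± 0.19), the matrix protein gene Ecm1 (log2 2.56 ± 0.19), the semaphorin gene Sema5a (log2 2.45 ± 0.24) and Emp1 (log2 2.44 ± 0.13). Samd5 had the highest value, log2 4.67 ± 0.46, from 0.708 and 1.29 to 29.7, 15.9 and 27.9 CPM, a start too low to fix its fold well.

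The largest net fall at that level was in Fgfr2, the receptor for several fibroblast growth factors, which stood at 89.3 and 89.8 CPM in the controls and 8.95, 8.92 and 9.95 CPM after both treatments, a 9.67-fold fall (log2 -3.27 ± 0.08, edgeR adjusted p = 5.96e-12). Fam151a dropped from 34.4 and 29.1 to 3.45, 3.802 and 4.01 CPM (log2 -3.08 ± 0.14, edgeR adjusted p = 1.2e-09). Kctd14, the BMP antagonist gene Nbl1 and the adrenergic receptor gene Adra2a fell 6.07-, 4.79- and 4.75-fold. Hist1h1c, a linker histone gene, fell from 22.9 and 20.99 to 5.28, 4.97 and 3.93 CPM, and the desmosomal cadherin gene Dsg2 from 166 and 163 to 45.6, 42.3 and 41.5 CPM. Nkx6-2, a homeobox factor gene, fell 3.68-fold, from 590.2 and 535 to 147, 165 and 147 CPM. Ripply3, Olfml2b and Fam19a5 had log2 changes of -1.98, -1.96 and -1.87. Libraries that do not overlap between the groups were a condition for naming these genes, as for the rises, and so lend the changes no further weight. The trypsinogen gene Prss3 (log2 -2.26) belongs to a family of near-identical genes, and its value is uncertain.

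Genes were next sorted by what each treatment did alone. A gene counts as moved by both together when EGF alone and the siRNAs alone were each called in 1 direction and the net change was called in that direction too. This held for 389 genes higher and 559 lower, 948 in all (2.92% and 4.19% of those tested). Of these, 794 had a larger net change than with either treatment alone. All 3 values share the control libraries. Without siCtrl replicate 1, 204 of the 389 and 343 of the 559 kept their class, and without siCtrl replicate 2, 260 and 379 did.

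Serpinf2 rose in both single comparisons, at log2 2.28 with EGF alone and 1.81 with the siRNAs alone, and its mean was 15.6 CPM in the controls, 75.96 CPM with EGF alone, 55.1 CPM with the siRNAs alone and 154 CPM with both. Npy, which encodes neuropeptide Y, stood at 5.01 and 3.94 CPM in the controls and 30.99, 35.8 and 28.2 CPM after both treatments and had log2 changes of 1.13 and 1.71 with each alone. The net change of Npy was 2.803, beside a sum of the single changes of 2.84. Pcsk6, a proprotein convertase gene, rose from 37.5 and 55.2 to 254, 218 and 256 CPM, and Map3k6, a MAP kinase kinase kinase gene, from 5.71 and 4.799 to 20.4, 18.7 and 18.99 CPM. The single changes were 1.87 and 1.18 for Pcsk6, and 1.28 and 1.21 for Map3k6. Has2 and Samd5 had larger values with EGF alone, at log2 3.47 and 5.55 against 1.27 and 1.83 with the siRNAs. The place of Samd5 in this class was lost without siCtrl replicate 1, siCtrl replicate 2 or siArid1a replicate 2.

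Among the genes lowered by both, Fgfr2 had a mean of 89.5 CPM in the controls, 27.2 CPM with EGF alone, 21.03 CPM with the siRNAs alone and 9.27 CPM with both. Each treatment alone thus took its level below every control library, and both together took it lower again. Fam151a had single changes of log2 -1.77 with EGF and -1.91 with the siRNAs, and Hist1h1c of -1.01 and -1.54. Ripply3, a transcriptional corepressor gene, stood at 23.2 and 24.3 CPM in the controls and 5.56, 6.43 and 6.02 CPM after both treatments, and Fam110c at 15.7 and 16.6 and 4.65, 3.66 and 5.27 CPM. Omp, known as a marker of olfactory neurons, had single changes of log2 -1.74 and -1.202 and a net change of -1.68, no larger than that with EGF alone.

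**Figure D1:**
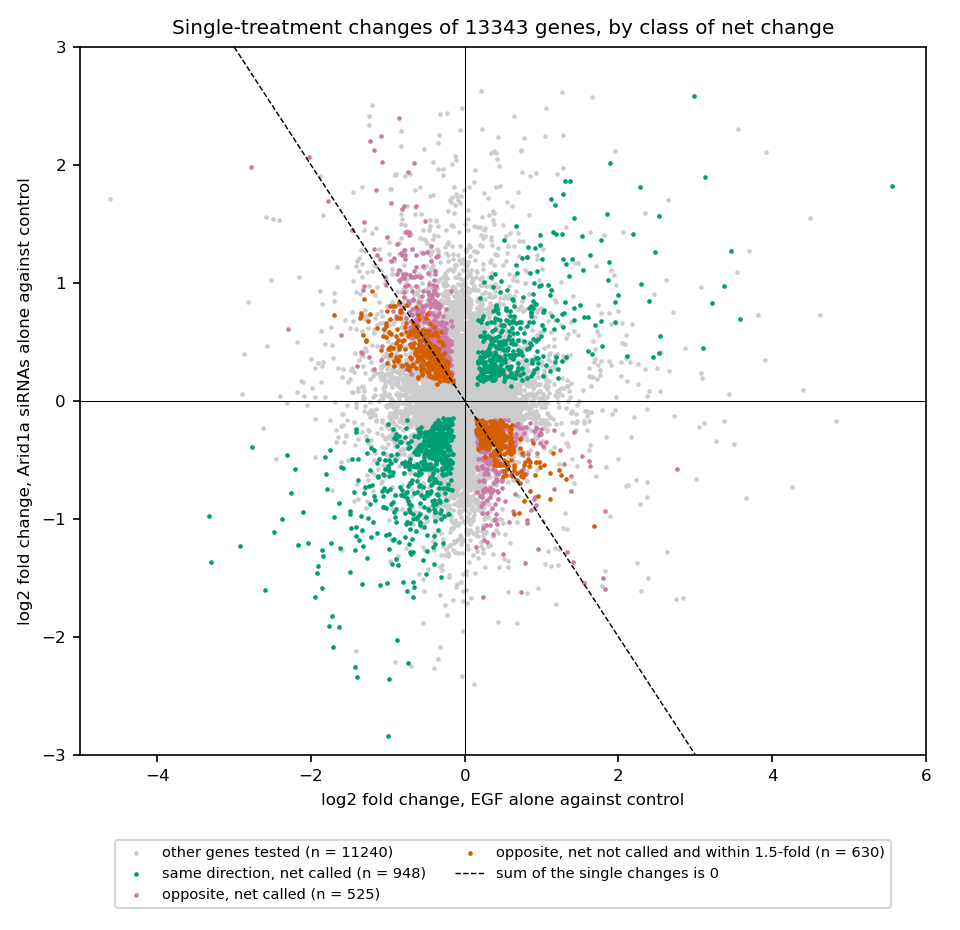
Log2 fold change of each tested gene with EGF alone (horizontal axis) and with Arid1a siRNAs alone (vertical axis), each against the control libraries and each from 1 fit over all 11 libraries. Points in colour are the 948 genes moved the same way by both, the 525 moved in opposite ways with a called net change and the 630 that cancel. On the dashed line the single changes sum to 0. Cancelling genes are defined by the net change and can lie off this line, as Bcat1 does with a sum of 0.61. A further 7 genes fall outside the axes.

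A gene was taken to cancel when each treatment alone was called in opposite directions, the net change was not called, and its 95% interval stayed within 1.5-fold of no change. This held for 630 genes, 299 that rose with EGF and fell with the siRNAs and 331 the other way round. A further 85 opposed genes were not called but had wider intervals. Bcat1, the cytosolic branched-chain aminotransferase gene, had means of 22.1 CPM in the controls, 70.2 CPM with EGF alone, 10.6 CPM with the siRNAs alone and 25.4 CPM with both. Its single changes were log2 1.68 and -1.06, and the net change was log2 0.21 ± 0.12 (95% interval -0.06 to 0.48). Without siCtrl replicate 2 Bcat1 was called higher (log2 0.40, edgeR adjusted p = 0.0331). The arginine and lysine transporter gene Slc7a1 stood at 191 and 244 CPM in the controls and 263, 206 and 258 CPM after both treatments, values that overlap. Alone, EGF gave it log2 0.95 and the siRNAs -0.81, and both together log2 0.16 ± 0.12 (95% interval -0.11 to 0.42), and its place in this class was lost without siCtrl replicate 2.

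The developmental transcription factor gene Sox11 had log2 0.71 with EGF, -0.95 with the siRNAs and log2 -0.17 ± 0.09 with both, at 157 and 181 CPM in the controls and 159, 135 and 156 CPM after both treatments. Dock11, an exchange factor gene for CDC42, moved by 0.77 and -0.85 and ended at log2 -0.02 ± 0.12. The organic anion transporter gene Slco3a1 and Pcolce2, a procollagen processing gene, had net values of -0.10 and 0.16. These were preceded by rises of 0.85 and 1.11 with EGF alone. In the other direction, the selenium-binding protein gene Selenbp1 fell with EGF alone (log2 -1.31) and rose with the siRNAs alone (log2 0.86). With both it stood at 13.3 and 12.6 CPM in the controls and 15.004, 15.3 and 13.4 CPM after both treatments (log2 0.17 ± 0.10, 95% interval -0.05 to 0.38). Although the change was not called, its doubly treated libraries did not overlap the controls. The cAMP phosphodiesterase gene Pde4a had single changes of -0.84 and 0.77 and a net value of log2 0.00 ± 0.13. Cilp2, Nsg2, the kinesin gene Kifc2 and the exchange factor gene Arhgef19 followed, with net values of 0.13, 0.17, 0.19 and 0.24. Arhgef19 was called higher without siArid1a_EGF replicate 3 (log2 0.30, edgeR adjusted p = 0.0378). Kifc2 kept its place in 8 of 17 other fits and lost it without replicate 1 of siCtrl, siCtrl_EGF, siArid1a or siArid1a_EGF, or replicate 2 of siArid1a or siArid1a_EGF. Pcolce2, Cilp2 and Nsg2 left the class without siCtrl replicate 1, Pcolce2 also without siArid1a_EGF replicate 1, and Cilp2 also without siArid1a_EGF replicate 3.

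These counts were lowest when a control was left out. There were 175 and 191 cancelling genes without siCtrl replicate 1, of which 120 and 141 were among the 299 and 331, and 198 and 217 without siCtrl replicate 2, with 142 and 157 shared. When the second step was measured from the EGF-treated cells instead (siArid1a_EGF against siCtrl_EGF, where 46.9% of genes were called, 23.7% higher), 545 and 695 genes cancelled and 231 and 291 moved together. Starting from the siRNAs and adding EGF, a step with 23.4% of genes called, gave 262 that rose with the siRNAs and then fell and 287 of the opposite order, with 301 and 276 moved together. The first definition shares the controls between the single changes, and the sequential ones share the middle group.

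Another 525 genes were moved in opposite ways and still called, 351 higher and 174 lower. These were 165 and 81 without siCtrl replicate 1, and 200 and 95 without siCtrl replicate 2. The phosphatase gene Dusp5, which acts on nuclear ERK, stood at 11.2 and 13.3 CPM in the controls and 48.7, 44.6 and 52.4 CPM after both treatments (log2 2.0001 ± 0.13, edgeR adjusted p = 3.48e-08). It rose with EGF alone (log2 2.76) and fell with the siRNAs alone (log2 -0.58). The ATP-gated channel gene P2rx6 did the reverse, at -1.24 and 2.203, and rose 3.41-fold on balance, from 4.25 and 3.22 to 12.3, 15.3 and 11.2 CPM. Ramp1, which encodes a partner of the calcitonin-family receptors, rose by log2 1.36. Lower genes of this kind were led by the tight junction gene Cldn1, at 82.98 and 86.03 CPM in the controls and 33.95, 29.5 and 30.03 CPM after both treatments (log2 -1.44 ± 0.07, edgeR adjusted p = 3.19e-09). Mllt1, a gene of the super elongation complex, Mlx, a partner of carbohydrate-sensing factors, and the mitochondrial thioredoxin gene Txn2 fell to log2 -1.14, -1.04 and -0.98. For these 3 the siRNAs alone gave -1.23, -1.197 and -1.18, and EGF alone 0.15, 0.29 and 0.25. The EGF rise of Mllt1 just passed (edgeR adjusted p = 0.0486), and the place of Mllt1 in this class held in 6 of 17 other fits. It was lost without siCtrl replicate 1, any siCtrl_EGF replicate, siArid1a replicate 1 or 2, or siArid1a_EGF replicate 1 or 3. Of the others, Dusp5 left the class without siCtrl replicate 2, Cldn1 without replicate 1 of siCtrl or siCtrl_EGF, Txn2 without replicate 2 of siCtrl or siCtrl_EGF, and Ramp1 without replicate 1 or 2 of either.

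Acinar genes were called in both directions. Of the list of digestive enzymes and secretory products, 6 of 29 tested members rose, 9 fell and 14 did not pass (shares of 20.7% up and 31% down, beside 22.0% and 21.3% of all genes tested), with a median log2 net change of -0.39 against -0.0031 over all genes. EGF alone had given 1 higher and 14 lower (median -0.57), and the siRNAs alone 9 and 9 (median 0.05). Without siCtrl replicate 2, 15 were called lower after both. Cpa1, carboxypeptidase A1, stood at 839 and 872 CPM in the controls and 533, 557 and 539.5 CPM after both treatments, a 1.57-fold fall (log2 -0.65 ± 0.07, edgeR adjusted p = 7.31e-06) with single changes of -0.48 and -0.27. The trypsin inhibitor gene Spink3 fell from 101 and 73.9 to 48.5, 60.98 and 49.5 CPM, also with both single changes negative (-0.60 and -0.41). The siRNA change of Spink3 did not pass when any one of 6 libraries was left out, and its EGF change did not without siCtrl replicate 1. The elastase gene Cela1 and the trypsinogen gene Prss2 rose, Cela1 from 1718 and 1623 to 2008, 2209 and 1988 CPM and Prss2 from 296 and 238 to 427, 468 and 447 CPM. For Cela1 this joins a fall with EGF alone (-0.39) and a rise with the siRNAs alone (0.53).

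The carboxyl ester lipase gene Cel rose 3.91-fold, from 10.9 and 6.23 to 34.02, 38.97 and 29.6 CPM (log2 1.97 ± 0.21, edgeR adjusted p = 1.04e-05), and the siRNAs alone had given log2 2.14. Trypsinogens Prss1 and Prss3 had the lowest values of the list, log2 -2.68 and -2.26. Prss1 stood at 5.71 and 2.79 CPM in the controls. Reads of the trypsinogen genes can be split between near-identical copies, so single members, Prss2 included, are uncertain. In Reg1, a secreted lectin gene, and Pnliprp1, a lipase-related gene, the treatments offset each other. Reg1 had single changes of log2 -0.69 and 0.59 and stood at 1296 and 1264 CPM in the controls and 1268, 1315 and 1307 CPM after both treatments, values that interleave (log2 0.02 ± 0.08). Pnliprp1 had -0.62 and 0.39 and a net log2 change of 0.00 ± 0.09. Ctrb1, chymotrypsinogen B, stood at 14335 and 12408 CPM in the controls and 11646, 12779 and 11278 CPM after both treatments and did not pass (log2 -0.17), except without siCtrl replicate 2 (log2 -0.27, edgeR adjusted p = 0.0422).

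Among transcription factors of acinar cells, 6 of 16 tested members rose, 5 fell and 5 did not pass (median log2 0.09). Shares were 37.5% up and 31.2% down, beside 22.0% and 21.3% of all genes tested. Ptf1a, the core factor of acinar fate, stood at 215 and 194 CPM in the controls and 148, 154 and 139 CPM after both treatments (log2 -0.48 ± 0.07, edgeR adjusted p = 8.4e-05). Rbpjl, which encodes the DNA-binding partner of PTF1A in mature acinar cells, rose instead, from 287 and 298 to 455, 458 and 449 CPM (log2 0.63 ± 0.06, edgeR adjusted p = 1.44e-06). Gata6 and Gata4, GATA factors of pancreatic epithelium, fell by 0.94 and 0.52 on the log2 scale, Gata6 from 147 and 161 to 80.7, 74.2 and 84.3 CPM. The homeobox factor gene Mnx1 fell from 59.8 and 58.5 to 33.95, 38.6 and 33.3 CPM. Nupr1, a stress-induced chromatin protein gene, and Xbp1, a factor of secretory cells, rose by log2 0.68 and 0.30. Both Bhlha15 (MIST1) and Nr5a2 overlapped the controls after both treatments. Bhlha15 had means of 25.02 CPM in the controls, 54.97 CPM with EGF alone, 18.2 CPM with the siRNAs alone and 27.1 CPM with both, with single changes of log2 1.15 and -0.44 and a net change of log2 0.13 ± 0.15 (95% interval -0.19 to 0.45). Nr5a2 had 0.42 and -0.36 and ended at log2 -0.11 ± 0.11 (95% interval -0.35 to 0.13), at 140.1 and 174 CPM in the controls and 150.5, 131 and 153 CPM after both treatments. Their place among the cancelling genes held in 9 and 12 of 17 other fits and was lost for both without siCtrl replicate 2, siArid1a replicate 1 or siArid1a replicate 3. It was lost for Nr5a2 also without siCtrl replicate 1, and for Bhlha15 without siArid1a replicate 2 or siArid1a_EGF replicate 3.

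In the secretory machinery, 3 of 19 tested members rose, 4 fell and 12 did not pass. These shares, 15.8% up and 21.1% down, do not exceed the 22.0% and 21.3% of all genes tested. Cckar, the receptor through which cholecystokinin triggers enzyme release, dropped from 10.97 and 18.4 to 1.76, 1.02 and 2.76 CPM, 7.95-fold (log2 -2.99 ± 0.34, edgeR adjusted p = 1.5e-05), and EGF alone had given log2 -3.32. Stxbp2, a Munc18 gene of granule fusion, fell from 48.1 and 45.4 to 22.5, 24.7 and 25.3 CPM. The cargo receptor gene Tmed6 and the gap junction gene Gjb1 rose by log2 1.16 and 0.95. Among genes of protein folding in the endoplasmic reticulum, 12 of 25 tested members rose, 3 fell and 10 did not pass (median 0.22). By share, 48% rose and 12% fell, beside 22.0% and 21.3% of all genes tested. The stress sensor gene Ern1 had the highest value, log2 0.80 ± 0.20, and did not pass without siCtrl replicate 1 (log2 0.62, edgeR adjusted p = 0.0935).

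**Figure D2:**
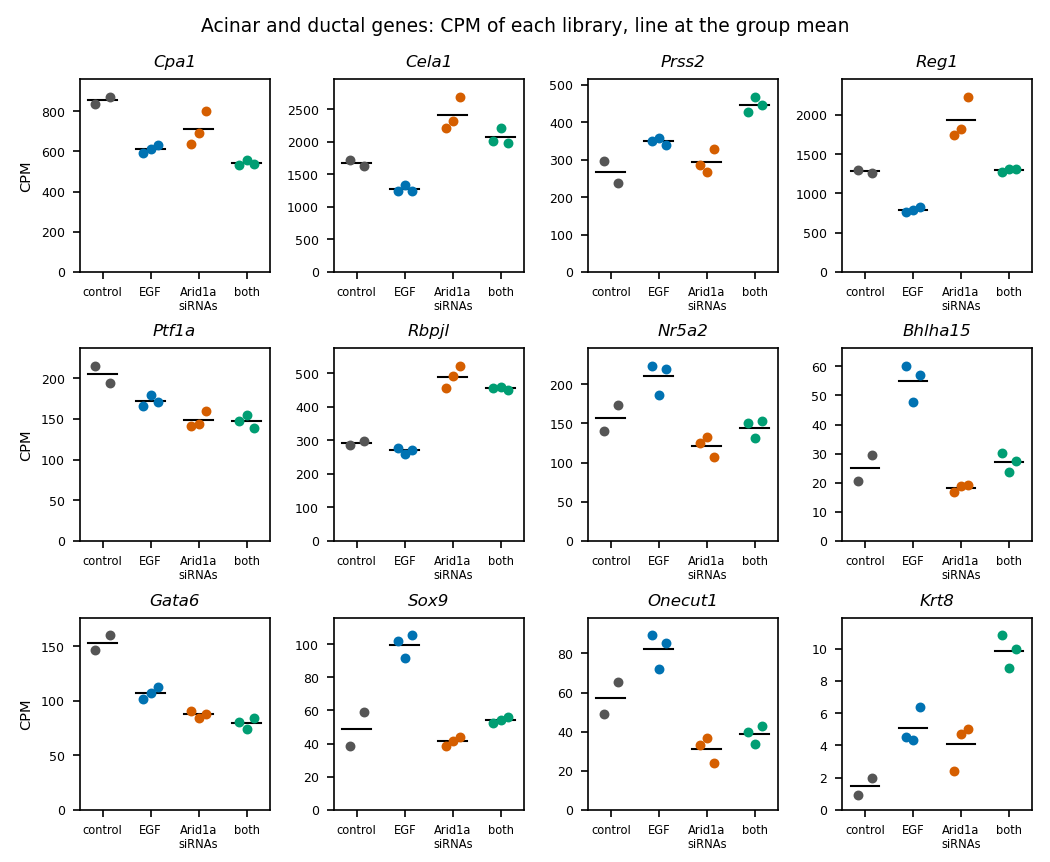
CPM of acinar and ductal genes in each of the 11 libraries (points) with the mean of each group (line), from left the control, EGF alone, Arid1a siRNAs alone and both, with axes from 0. Cpa1, Ptf1a and Gata6 are lowest or among the lowest with both, Rbpjl and Krt8 are above the controls, and Nr5a2, Bhlha15, Sox9 and Reg1 overlap the controls.

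In the list of duct cell markers, 9 of 34 tested members rose, 6 fell and 19 did not pass (shares of 26.5% up and 17.6% down, beside 22.0% and 21.3% of all genes tested, median log2 -0.13). EGF alone had called 14 higher and 3 lower, with a median of 0.22, and the siRNAs alone 7 and 8, with a median of -0.09. Sox9, a factor of duct and progenitor cells, rose with EGF alone (log2 1.03) but with both stood at 38.8 and 59.3 CPM in the controls and 52.5, 54.3 and 56.1 CPM after both treatments (log2 0.16 ± 0.13, edgeR adjusted p = 0.37), inside the range of the controls. Without siCtrl replicate 2 it was called higher (log2 0.48, edgeR adjusted p = 0.0018). Onecut1 (HNF6), a factor of the ductal lineage, rose with EGF alone (0.53), fell with the siRNAs alone (-0.85) and was lower with both, from 49.2 and 65.2 to 39.7, 33.6 and 43.1 CPM. The net call of Onecut1 was lost without siCtrl replicate 2 (log2 -0.35, edgeR adjusted p = 0.171) or siArid1a_EGF replicate 2 (edgeR adjusted p = 0.0653), and its rise with EGF without siCtrl replicate 1 or siCtrl_EGF replicate 1 or 3. Krt19, the defining duct keratin, was at a low level, at 1.67 and 2.15 CPM in the controls and 1.197, 1.54 and 1.34 CPM after both treatments (log2 -0.47 ± 0.25, edgeR adjusted p = 0.15).

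Among the higher ductal genes, Spp1, which encodes the secreted phosphoprotein osteopontin, rose 9.79-fold, from 1.77 and 1.22 to 14.5, 14.3 and 16.6 CPM (log2 3.29 ± 0.19, edgeR adjusted p = 9.36e-09). The simple-epithelial keratin gene Krt8 rose from 0.9102 and 2.01 to 10.8, 8.77 and 9.95 CPM (log2 2.83 ± 0.31, edgeR adjusted p = 6.47e-06), and its partner Krt18 by log2 0.96. Both single treatments raised Spp1, Krt8 and Krt18, but the rise of Krt8 with the siRNAs did not pass without siCtrl replicate 1, nor either single rise of Krt18 without siCtrl replicate 2. Keratin genes have near-identical copies elsewhere in the genome, so their levels are uncertain. Anxa2, a membrane-binding annexin gene, rose from 72.5 and 85.95 to 153, 155 and 148 CPM, and Onecut3 from 6.83 and 6.37 to 19.4, 17.4 and 18.7 CPM. S100a6 had under 2 CPM in each of the 5 libraries. The lowest called was Ehf, an epithelial ETS factor gene, from 1.72 and 1.65 to 0.282, 0.366 and 0.753 CPM. Others included the surface marker gene Cd24a, from 641 and 623 to 367, 364 and 374 CPM, and the epithelial factor gene Elf3, from 89.6 and 84.3 to 53.3, 56.4 and 47.9 CPM.

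Genes of pancreatic progenitors and the Notch pathway leaned lower: 5 of 30 tested members rose, 11 fell and 14 did not pass (median -0.29). Shares were 16.7% up and 36.7% down, beside 22.0% and 21.3% of all genes tested. Pdx1, the early pancreas factor, fell from 396 and 438 to 210.2, 202 and 194 CPM (log2 -1.04 ± 0.06, edgeR adjusted p = 9.36e-09), nearly as with the siRNAs alone (-1.02). Prox1, a homeobox factor gene, fell from 105 and 154 to 63.6, 41.2 and 59.97 CPM. The Notch ligand gene Dll1 fell with each treatment alone (-1.299 and -0.73) and stood at 151 and 158 CPM in the controls and 59.7, 57.03 and 60.5 CPM after both treatments. The receptor genes Notch1, Notch2 and Notch3 fell by 0.60, 0.63 and 0.97 on the log2 scale. The Notch target gene Hes1 did not pass (log2 -0.22). Without siCtrl replicate 2, Notch2 (log2 -0.40, edgeR adjusted p = 0.0811) and Notch3 (log2 -0.60, edgeR adjusted p = 0.0979) did not pass, and Hes1 did (log2 -0.42, edgeR adjusted p = 0.00812). Nkx2-2 and Klf5 fell from low levels, with log2 changes of -1.54 and -1.53. Among rises, the stem cell receptor gene Lgr5 went from 3.34 and 6.37 to 14.02, 13.2 and 14.5 CPM and the Notch ligand gene Jag2 from 9.203 and 11.96 to 28.2, 25.5 and 27.3 CPM.

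In cell cycle lists more members fell than rose. In the list of G1 cyclins, kinases, inhibitors and E2F factors, 5 of 28 tested members rose, 12 fell and 11 did not pass (median -0.24). By share, 17.9% rose and 42.9% fell, beside 22.0% and 21.3% of all genes tested. Both drivers and inhibitors were among the lower genes. Ccne1, cyclin E1, which drives entry into S phase, stood at 36.3 and 40.9 CPM in the controls and 15.8, 14.04 and 16.8 CPM after both treatments, a 2.48-fold fall (log2 -1.31 ± 0.10, edgeR adjusted p = 9.21e-08). EGF alone gave it log2 0.04. The CDK inhibitor gene Cdkn1b (p27) fell from 246 and 247 to 108, 104 and 107 CPM (log2 -1.21 ± 0.05, edgeR adjusted p = 5.24e-10), Cdkn1c (p57) by log2 0.81 and Cdkn2c (p18) by 0.80. E2f2, E2f8 and E2f7 fell by 1.201, 1.096 and 0.63. Myc rose from 108 and 118 to 158, 162 and 161 CPM (log2 0.50, beside 0.99 with EGF alone), and the inhibitor genes Cdkn2b and Cdkn1a (p21) rose by 0.71 and 0.46. Ccnd1, cyclin D1, stood at only 1.97 and 2.36 CPM in the controls and 2.75, 3.29 and 2.76 CPM after both treatments and did not pass (log2 0.45, edgeR adjusted p = 0.0682).

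Of the genes of DNA replication and S phase, 5 of 48 tested members rose, 27 fell and 16 did not pass (median -0.20). Shares were 10.4% up and 56.2% down, beside 22.0% and 21.3% of all genes tested. The number that rose was 3 without siCtrl replicate 2. Tk1, thymidine kinase, fell most, from 55.4 and 63.9 to 26.8, 29.1 and 30.3 CPM (log2 -1.05 ± 0.09, edgeR adjusted p = 3.63e-07). Orc6, a subunit of the origin recognition complex, fell from 70.2 and 59.9 to 39.7, 40.1 and 40.6 CPM, and Rrm1 and Rrm2, which form ribonucleotide reductase, by 0.59 and 0.58 on the log2 scale. Helicase genes of the Mcm2 to Mcm7 complex had log2 values from -0.35 to 0.10, and Mcm3 did not pass. The fork protection gene Timeless rose by 0.54.

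For G2/M genes, 5 of 56 tested members rose, 25 fell and 26 did not pass (median -0.15). By share, 8.93% rose and 44.6% fell, beside 22.0% and 21.3% of all genes tested. Here EGF alone had called 40 lower and 0 higher (median -0.28), and the siRNAs alone 5 lower and 16 higher (median 0.05). Nusap1, a spindle protein gene, stood at 102 and 90.9 CPM in the controls and 68.1, 73.8 and 69.9 CPM after both treatments (log2 -0.45 ± 0.07, edgeR adjusted p = 8.96e-05), with log2 -0.88 for EGF alone. Aurkb, the kinase of the chromosomal passenger complex, fell from 225 and 228 to 147, 158 and 150.3 CPM, and the mitotic kinase gene Pbk from 174 and 163 to 109, 115 and 122 CPM. Top2a and Kif11, a topoisomerase and a spindle motor, fell by 0.33 and 0.36. The proliferation marker Mki67 only just passed, at 668 and 798 CPM in the controls and 627, 487 and 600.3 CPM after both treatments (log2 -0.36 ± 0.13, edgeR adjusted p = 0.0494), and Pttg1 (securin) did so with libraries that overlap (log2 -0.61 ± 0.23, edgeR adjusted p = 0.0495). Without siCtrl replicate 1 Pttg1 stood at log2 -0.15 (edgeR adjusted p = 0.639), and without siCtrl replicate 2 Mki67 at -0.22 (edgeR adjusted p = 0.307). Leaving out other single libraries ended the calls as well, 5 others each for Pttg1 and Mki67. The number of lower G2/M genes was 14 without siCtrl replicate 1, and that of higher ones 3 without siCtrl replicate 2 or siArid1a_EGF replicate 1. The genes Cdc25b and Kif20a, which act in mitosis, rose by 0.34 and 0.33. In 8 of 56 members, among them Tpx2, Nuf2, Prc1 and Ncapd2, the treatments cancelled, beside 630 of all 13343 genes tested. Ncapd2, a condensin subunit gene, had single changes of -0.48 and 0.31 and a net log2 change of -0.01 ± 0.05.

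Many G2/M genes are known to share a promoter element called CHR. Its 6-base word TTTGAA was found in 31 of the 45 list members (68.9%) that have a promoter in RefSeq (GRCm38.p6, 250 bases before to 50 after the start), against 13.6% of 9484 tested genes with one and 20.2% of all promoters in the table. A match is a description of the letters, not a site of action. The windows of 30 bases below belong to the 4 called members with the largest net change among those that hold the word, which is in capitals, on the strand that reads as spelled.
Spc25 (chr2:69206172-69206201, minus strand): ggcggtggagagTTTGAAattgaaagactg
Smc2 (chr4:52439235-52439264, minus strand): cggaactgttccTTTGAAtttcggcgcgag
Mki67 (chr7:135716460-135716489, minus strand): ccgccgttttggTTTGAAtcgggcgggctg
Kif11 (chr19:37376351-37376380, minus strand): ccgcgcctcaatTTTGAAaaatggagacga
Their net log2 changes were -0.55, -0.42, -0.36 and -0.36 in this order, and without siCtrl replicate 1 Spc25 stood at -0.32 (edgeR adjusted p = 0.0514).

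In sterol synthesis, 9 of 25 tested members were called in opposite directions by the single treatments, a larger share than the 9.29% of all genes tested. After both, 6 of 25 tested members rose, 5 fell and 14 did not pass (median log2 0.06). Shares of 24% up and 20% down were near the 22.0% and 21.3% of all genes tested. EGF alone had called 15 of 25 higher and 0 lower (median 0.26), and the siRNAs alone 1 higher and 13 lower (median -0.24). The rule for cancelling was met by 7 of the 25 members, beside 630 of all 13343 genes tested. Only 3 were called higher after both without siCtrl replicate 1. Srebf2, which encodes the master factor of the pathway, had 0.25 and -0.24 and a net log2 change of 0.01 ± 0.08. It kept its place among the cancelling genes in 8 of 17 other fits and lost it without either control. Other members had a called net change: Mvk, mevalonate kinase, fell from 103 and 115 to 57.3, 57.7 and 59.4 CPM (log2 -0.90 ± 0.10, edgeR adjusted p = 3.66e-06), and Cyp51 and Nsdhl, enzymes late in the pathway, fell by 0.35 and 0.66.

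In fatty acid synthesis, 12 of 23 tested members rose, 6 fell and 5 did not pass (median 0.27). By share, 52.2% rose and 26.1% fell, beside 22.0% and 21.3% of all genes tested. Fasn, fatty acid synthase, stood at 857 and 1215 CPM in the controls and 1536, 1266 and 1511 CPM after both treatments (log2 0.47 ± 0.14, edgeR adjusted p = 0.0159), with log2 0.63 with EGF alone. It did not pass without siCtrl replicate 1 (log2 0.24, edgeR adjusted p = 0.138). The elongase gene Elovl6, which acts after it, rose by 0.60. The acetyl-CoA synthetase gene Acss2 rose from 11.9 and 21.3 to 41.6, 30.6 and 44.7 CPM, near its value with the siRNAs alone (1.25 and 1.05). The desaturase gene Scd1 and the lipase-related Pnpla3 fell, Scd1 from 873 and 1068 to 699, 647 and 752 CPM and Pnpla3 from 13.05 and 13.3 to 6.06, 4.68 and 6.44 CPM. Only 7 of these genes were called higher without siCtrl replicate 1, in place of 12.

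Of fatty acid oxidation genes, 7 of 35 were called in opposite directions by the single treatments, a larger share than the 9.29% of all genes tested. With EGF alone 1 rose and 14 fell (median -0.25), and with the siRNAs alone 20 rose and 2 fell (median 0.43). After both, 13 rose, 8 fell and 14 did not pass (median 0.08). Shares were 37.1% up and 22.9% down, beside 22.0% and 21.3% of all genes tested. Cpt1a, which lets fatty acids into mitochondria, stood at 49.5 and 48.1 CPM in the controls and 116, 103 and 106 CPM after both treatments, 2.21-fold higher (log2 1.15 ± 0.07, edgeR adjusted p = 2.19e-08). Creb3l3, a liver-enriched factor gene of lipid metabolism, rose from 16.6 and 10.1 to 41.3, 48.04 and 40.1 CPM. Angptl4, an inhibitor of lipoprotein lipase, rose from 6.02 and 4.15 to 12.6, 15.2 and 12.4 CPM (log2 1.37, beside 2.48 with the siRNAs alone). The acyl-CoA dehydrogenase gene Acadvl rose by 0.59, and Cpt2, the inner membrane partner of Cpt1a, had -0.67 and 0.46 alone and 0.00 ± 0.07 with both. The uncoupling protein gene Ucp2 and the fatty acid receptor gene Cd36 fell by 0.62 and 0.73.

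Among glycolysis and hypoxia genes, 10 of 35 tested members rose, 9 fell and 16 did not pass (median 0.08). Shares of 28.6% up and 25.7% down were not far from the 22.0% and 21.3% of all genes tested. Pkm2, pyruvate kinase, fell most among the enzymes, from 925 and 1076 to 435, 426 and 464 CPM (log2 -1.18 ± 0.09, edgeR adjusted p = 1.07e-07), as with the siRNAs alone (-1.19). The hypoxia-induced gene Ndrg1 fell with each treatment and with both, from 92.03 and 97.1 to 35.1, 30.7 and 32.8 CPM (log2 -1.52 ± 0.09, edgeR adjusted p = 1.25e-08). Bnip3, another, was called lower in the same 3 comparisons, but 1 or both of its single falls did not pass without siCtrl replicate 2, siCtrl_EGF replicate 2, siArid1a replicate 1 or 2, or siArid1a_EGF replicate 3. The carbonic anhydrase gene Car12, also hypoxia-induced, rose from 1.47 and 1.65 to 5.14, 4.17 and 5.44 CPM. Hk2, hexokinase 2, rose with EGF and fell with the siRNAs, and rose on balance by 0.64, though its fall did not pass without siCtrl replicate 2. Ldha, lactate dehydrogenase A, had 0.52 and -0.39 and did not pass with both (log2 0.18 ± 0.10). It was called higher without siCtrl replicate 2 (log2 0.31, edgeR adjusted p = 0.0424) or siArid1a replicate 3 (log2 0.18, edgeR adjusted p = 0.0383). Gapdh stood at 4.602 and 4.44 CPM in the controls and 4.44, 4.53 and 4.27 CPM after both treatments, a level that is uncertain because the genome holds many near-identical copies. Genes of the TCA cycle and respiratory chain moved little: 4 of 49 tested members rose, 9 fell and 36 did not pass (median -0.04, range -0.55 to 0.45). By share, 8.16% rose and 18.4% fell, beside 22.0% and 21.3% of all genes tested. Idh2, mitochondrial isocitrate dehydrogenase, fell most, from 658 and 641 to 443, 449 and 439.9 CPM. The number of lower genes in this list was 4 or 5 without siCtrl replicate 1, siArid1a_EGF replicate 1 or siArid1a_EGF replicate 3, and that of higher ones 2 without siCtrl replicate 2.

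**Figure D3:**
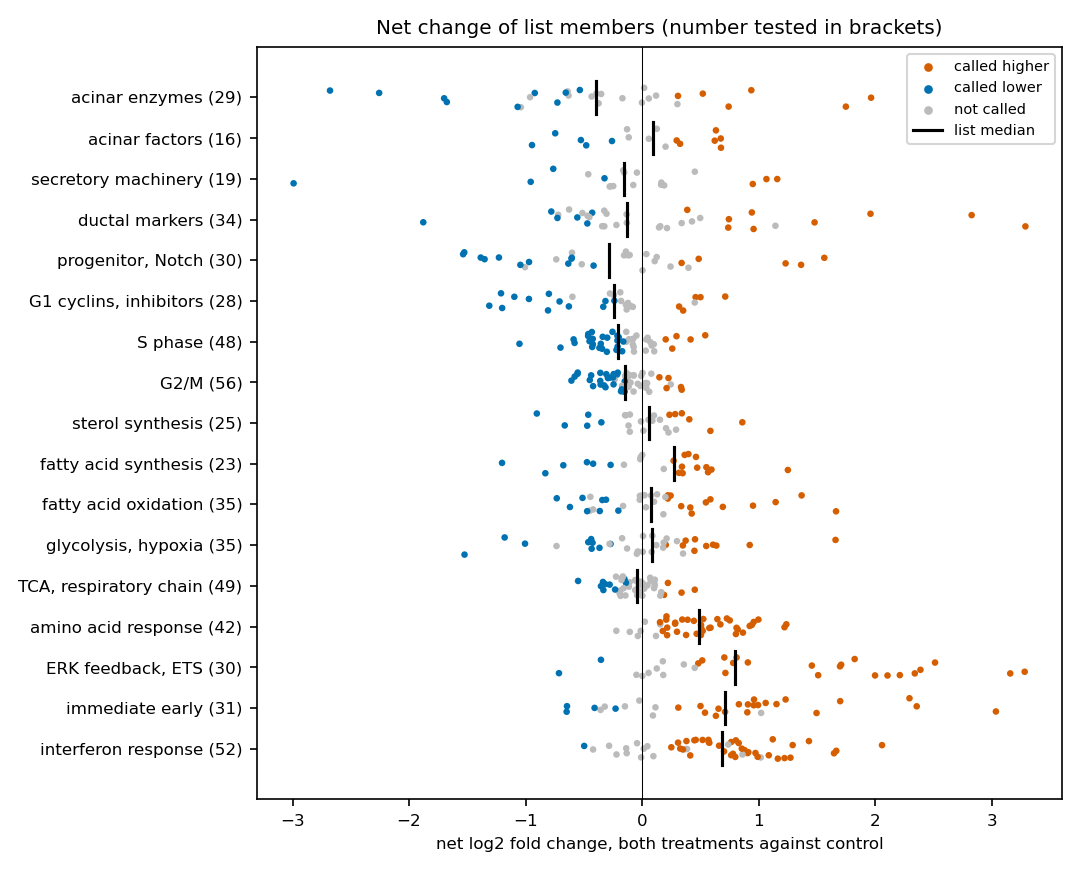
Net log2 fold change (horizontal axis) of every tested member of 17 gene lists (rows), coloured by whether edgeR called it higher, lower or not, with the median of each list as a vertical line. Members of the amino acid, ERK and interferon lists lie mostly to the right of 0, S phase and G2/M members in a narrow band mostly to the left, and acinar and ductal members spread to both sides.

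The amino acid response list was nearly all higher, with 83.3% up and 0% down, beside 22.0% and 21.3% of all genes tested. In it 35 of 42 tested members rose, 0 fell and 7 did not pass (median log2 0.49). EGF alone had called 30 higher and the siRNAs alone 9 higher and 6 lower. The list holds genes that ATF4 is known to switch on, of amino acid uptake, serine and one-carbon metabolism and tRNA charging. Psat1, an enzyme of serine synthesis, stood at 130.1 and 139 CPM in the controls and 307, 325 and 308 CPM after both treatments, 2.33-fold higher (log2 1.22 ± 0.06, edgeR adjusted p = 3.19e-09), with log2 0.72 and 0.62 for each treatment alone. The cationic amino acid transporter gene Slc7a3 had the highest value, log2 1.24. Shmt2 and Mthfd2, which pass serine carbon to folate in mitochondria, rose by 0.82 and 0.73. The transporter genes Slc7a5 and Slc1a4 rose by 0.92 and 0.81, and Asns, asparagine synthetase, from 133 and 150.1 to 224, 222 and 231 CPM. Cebpb and Ddit3, bZIP factor genes, were called after both (0.75 and 0.38) though neither single treatment had called them. The same held for 741 of the 5609 genes that neither single treatment called. In 0 of those 5609 was a departure of the net change from the sum of the single changes called. In 4 of 42 members, and in 630 of all 13343 genes tested, the treatments cancelled. Besides Slc7a1, these members were Mthfd1l, a folate enzyme, Aldh18a1, of proline synthesis, and the glutamine transporter gene Slc1a5. They had net values of -0.01, -0.04 and 0.02.

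Promoters of this list often hold the composite element that ATF4 binds with C/EBP partners. Its core word TGATGCAA was in 10 of 33 list members with a promoter (30.3%), against 0.728% of the tested genes with one and 1.03% of all promoters. The windows below show it, in capitals, in the 4 called members with the largest net change that hold it.
Atf3 (chr1:191183425-191183454, plus strand): cgcggacttggTGATGCAAgtgcgagaagg
Vldlr (chr19:27216809-27216838, minus strand): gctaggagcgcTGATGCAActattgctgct
Slc1a4 (chr11:20332699-20332728, plus strand): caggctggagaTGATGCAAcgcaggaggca
Slc7a11 (chr3:50443642-50443671, plus strand): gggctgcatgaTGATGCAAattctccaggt
Net log2 changes of these 4 were 0.96, 0.87, 0.81 and 0.81. Without siCtrl replicate 1, Atf3 (log2 0.68, edgeR adjusted p = 0.0616) and Slc7a11 (log2 0.62, edgeR adjusted p = 0.149) did not pass, and Slc7a11 did not without siArid1a_EGF replicate 1 either (edgeR adjusted p = 0.0603).

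**Figure D4:**
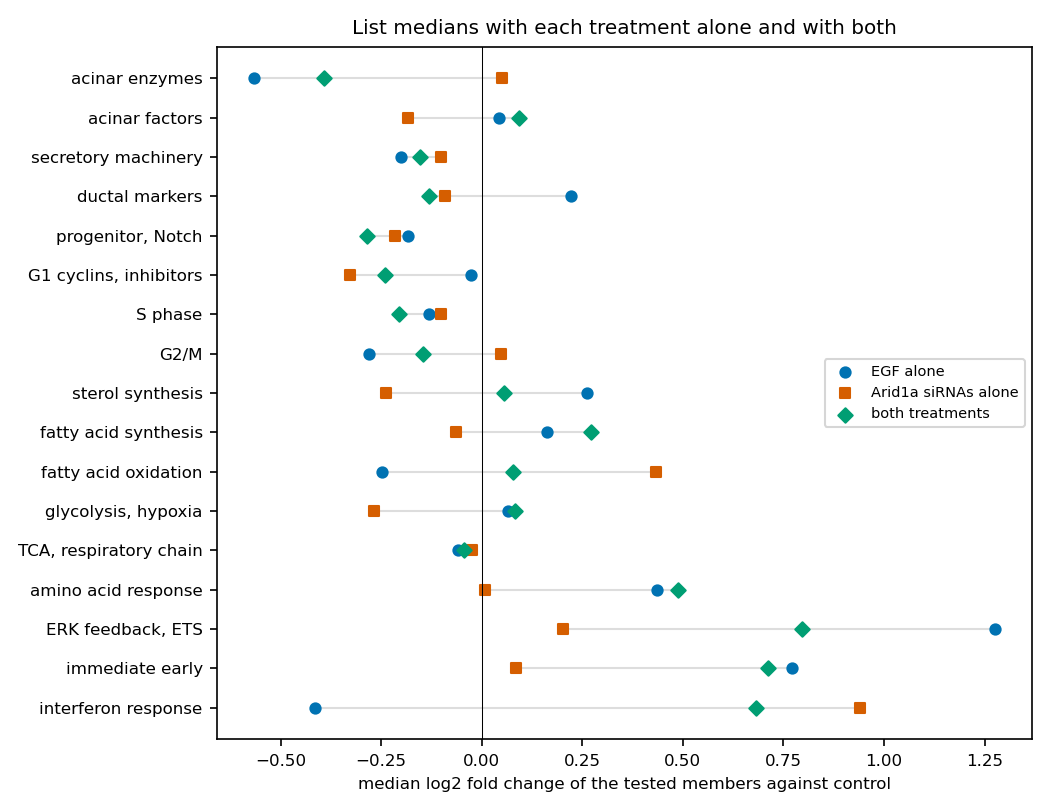
Median log2 fold change of the tested members of each list (rows) against the control libraries, with EGF alone (circles), Arid1a siRNAs alone (squares) and both (diamonds). In acinar enzyme, G2/M, sterol, fatty acid oxidation and interferon lists, the median with both lies between single medians of opposite sign. In acinar factor, ductal, fatty acid synthesis and glycolysis lists the single medians also have opposite signs, but the median with both lies outside them.

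Most ERK feedback genes rose. Of ERK feedback and ETS genes, 20 of 30 tested members rose, 2 fell and 8 did not pass (median 0.80, against 1.28 with EGF alone). Shares were 66.7% up and 6.67% down, beside 22.0% and 21.3% of all genes tested. Dusp6, the cytoplasmic ERK phosphatase gene, stood at 15.4 and 18.3 CPM in the controls and 86.9, 82.2 and 85.4 CPM after both treatments, 5.07-fold higher (log2 2.34 ± 0.09, edgeR adjusted p = 2.7e-10), while EGF alone gave log2 3.08. Spry4 went from 1.72 and 1.43 to 15.004, 14.9 and 17.1 CPM, and Etv4 from 5.06 and 7.31 to 54.8, 51.8 and 55.95 CPM. Hbegf, a ligand gene of the EGF receptor, rose from 10.01 and 8.24 to 33.2, 32.03 and 32.6 CPM (log2 1.83 ± 0.11, edgeR adjusted p = 9.54e-09), with both single changes positive. The urokinase receptor gene Plaur rose from 1.47 and 1.504 to 8.31, 8.56 and 8.698 CPM. The receptor gene Egfr itself stood at 55.4 and 78.6 CPM in the controls and 88.3, 69.1 and 88.3 CPM after both treatments and did not pass (log2 0.30 ± 0.18, edgeR adjusted p = 0.2), though with siCtrl replicate 2 left out it passed (log2 0.56, edgeR adjusted p = 0.0390). Nfatc1, which encodes a calcium-regulated factor, did not pass either (log2 -0.07 ± 0.10, edgeR adjusted p = 0.607). Its single values were 0.23 and -0.48. The lower genes were Dusp14 and Ets2, and Dusp14 did not pass without siCtrl replicate 1 (log2 -0.60, edgeR adjusted p = 0.0559).

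Immediate early genes, which growth factors induce first, were mostly higher as well 8 h after EGF. Of 31 tested members, 20 rose, 4 fell and 7 did not pass (median 0.71). By share, 64.5% rose and 12.9% fell, beside 22.0% and 21.3% of all genes tested. Maff, a small bZIP factor gene, stood at 6.17 and 8.52 CPM in the controls and 37.3, 38.1 and 35.9 CPM after both treatments (log2 2.36 ± 0.12, edgeR adjusted p = 3.19e-09). Klf4, Junb and Egr1 rose by 1.23, 1.06 and 0.96. Egr2 and Egr3 had under 3 CPM in each of the 5 libraries, and the call of Egr3 was lost without siCtrl replicate 1 (log2 1.88, edgeR adjusted p = 0.0741). The lower members were Arc, Nr4a2, Jund and Srf, at -0.65, -0.64, -0.41 and -0.23. Without siCtrl replicate 1 only Arc of these 4 passed, with edgeR adjusted p = 0.0529 for Jund, 0.0638 for Srf and 0.156 for Nr4a2, and the Nr4a2 call ended when any one of 7 libraries was left out.

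Most interferon response genes rose after both treatments, 69.2% up and 1.92% down, beside 22.0% and 21.3% of all genes tested. The single treatments called 22 of 52 in opposite directions, beside 9.29% of all genes tested. EGF alone had called 0 higher and 27 lower (median -0.41), the siRNAs alone 41 higher and 0 lower (median 0.94), and both together 36 higher and 1 lower, with 15 not called (median 0.68). Irf7, the master factor of the response, stood at 10.2 and 11.5 CPM in the controls and 27.96, 23.3 and 27.3 CPM after both treatments (log2 1.27 ± 0.12, edgeR adjusted p = 1.03e-06). Its mean was 10.9 CPM in the controls, 6.83 CPM with EGF alone, 43.9 CPM with the siRNAs alone and 26.2 CPM with both. The group with both lies between the single treatments and above the controls. Isg20, an antiviral nuclease gene, rose 4.17-fold, from 6.67 and 7.38 to 30.2, 27.5 and 29.9 CPM, and Xaf1 and Gbp3 by log2 1.67 and 1.65. Ifit1 rose from 3.19 and 4.58 to 9.93, 10.02 and 10.96 CPM. Irf9, which takes part in carrying the interferon signal to the nucleus, rose by 0.83. Its partner Stat2 had -0.65 and 0.65 and a net rise of 0.33. The lower gene was Parp12, at log2 -0.50. Eif2ak2, which encodes the double-stranded RNA sensor PKR, and Parp9 cancelled, at log2 0.05 and 0.01, though Eif2ak2 left this class without siCtrl replicate 1. The Oas, Ifit and Gbp families hold similar genes between which reads can be split, so single members are uncertain.

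The interferon-stimulated response element (ISRE), searched as a pair of GAAA words with any 2 bases between them, was in 18 of 38 list members with a promoter (47.4%), against 3.41% of tested genes with one and 3.99% of all promoters. The 4 called members with the largest net change that hold it are shown, with the element in capitals.
Gbp3 (chr3:142559995-142560024, minus strand): agggatctggGAAATAGAAActgaaactgt
Ifit1 (chr19:34640794-34640823, minus strand): tcagcagtgaGAAACTGAAActgagactgg
Oas1g (chr5:120887606-120887635, minus strand): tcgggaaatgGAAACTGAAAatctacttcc
Ifih1 (chr2:62646206-62646235, minus strand): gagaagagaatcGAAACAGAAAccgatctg
Net log2 changes of these 4 were 1.65, 1.43, 1.09 and 0.99. In all, 12 words were searched on both strands, without regard to overlap, in 8 lists. The E2F words TTTCGCGC and TTTGGCGC were in 8 and 5 of 39 S phase genes (0.738% and 1.19% of tested genes). The ETS word CCGGAAGT was in 0 of 21 ERK feedback genes (8.72%). The AP-1 word TGAGTCA was in 2 of these 21 and 0 of 23 immediate early genes (4.37%), and TGACGTCA in 3 and 2 (3.58%). A consensus CArG box was in 0 of the 23 (0.0316%), TCACNCCAC in 0 of 16 sterol genes (1.4%) and a pair of AGGTCA words 1 base apart in 0 of 29 fatty acid oxidation genes (0.0527%). TGATGNAA, which covers TGATGCAA, was in 13 of 33 amino acid response genes (2.7%).

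**Figure D5:**
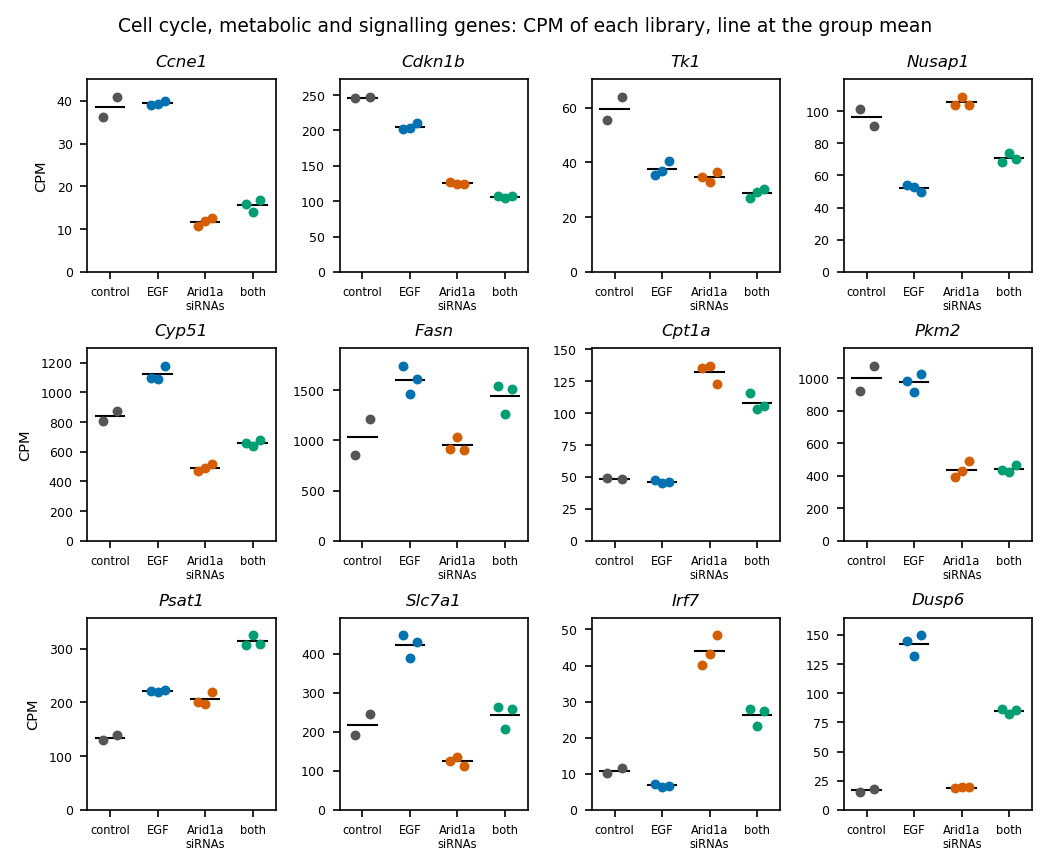
CPM of cell cycle, metabolic and signalling genes in each of the 11 libraries (points) with group means (lines), groups as from left control, EGF alone, Arid1a siRNAs alone and both, with axes from 0. Ccne1, Cdkn1b, Tk1 and Pkm2 lie below the controls with both, Psat1, Cpt1a and Dusp6 above, Slc7a1 overlaps the controls, and Irf7 and Cyp51 lie between the levels of the single treatments.

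Lists of other cell types gave few members to test, and of all genes tested 22.0% rose and 21.3% fell. Of fibroblast markers, 5 of 14 tested members rose, 1 fell and 8 did not pass (median 0.19), and Vim, vimentin, rose from 322 and 305 to 472, 518 and 446 CPM, while Col1a1 and Col3a1 had at most 45 reads in any library. The fibroblast gene that fell was Acta2, and its call was lost without siCtrl replicate 1, siArid1a_EGF replicate 1 or siArid1a_EGF replicate 3 (edgeR adjusted p = 0.365, 0.0805 and 0.0691). Of islet markers, 4 of 10 tested members rose, 1 fell and 5 did not pass; the lower one was Mafa, at log2 -2.103. Immune markers gave 1 higher of 2 tested, Cd68, and endothelial markers 2 higher of 5, Kdr and Esam, and 1 lower, Vwf. The Kdr call was lost without either control (edgeR adjusted p = 0.106 and 0.0946) or siArid1a_EGF replicate 1 (edgeR adjusted p = 0.155).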

How the data were processed

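RNA of mouse 266-6 cells was sequenced from TruSeq RNA v2 libraries, which do not mark the strand. The submitters' processing notes name TopHat2 2.1.1, HTSeq 0.9.1 and the build mm9. The files the authors deposited hold raw read counts per gene symbol, 1 file per library. The annotation and counting settings are not given in the sources used here. A deposited table of 12 columns from Cuffnorm 2.2.1.2 was not used, because it has more control columns than there are control libraries.

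The test of the counts was that of edgeR 4.0.16 (R 4.3.3). filterByExpr (minimum count 10, minimum total 15) left 13343 genes (57.3%, with 99.96% of the reads), which were scaled by TMM and fitted as 4 group means over all 11 libraries with robust quasi-likelihood (7 residual degrees of freedom, biological coefficient of variation 7.00%). Tests were two-sided. The call threshold was a Benjamini-Hochberg adjusted p under 0.05, with intervals at 95%. Pairs of libraries within the 2 groups compared differed by a chi-square per degree of freedom of 1.57 to 10.9, so none is a copy. The 10.9 is that of the 2 controls.

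The members and the 23 gene lists (742 genes, 657 tested) were chosen with earlier results of these data known, and lists are described by counts and medians without a set test. Named genes are the 12 largest rises and falls among those called whose log2 CPM averages 3 or more and whose libraries do not overlap, the 6 leading genes of each class and direction with that mean level by their smaller single change (4 for opposed genes, by net change), the 3 largest called members of each list, and a fixed set with Arid1a, Ptf1a, Sox9 and Dusp6. Clone-type symbols were passed over. The list and fixed genes needed no minimum level. Further list members were named after their values were seen, and some genes that the rule names are not reported here. Alternatives were RLE and upper-quartile factors, no filter, DESeq2 1.42.0, the replicate number as a block, only the 2 groups, an adjusted p under 0.01, sequential steps, each library left out, and, added later, the newer edgeR fit (legacy=FALSE). Promoter sequences are RefSeq's, of GRCm38.p6, matched by symbol for 510 of the 657 list genes tested. The files give no coordinates.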

Additional observations from a re-analysis of the deposited data

Results flagged for a closer look

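The EGF response differed between cells with control siRNA and cells with Arid1a siRNAs (interaction in the same fit) for 126 genes of 13343 (0.944%). The EGF response was smaller in size after the Arid1a siRNAs in 119 of the 126 and larger in 7. Among the genes named here, 17 passed this test, all of them among the 119. The named genes were in part chosen for large net changes. Has2 rose by log2 3.47 with control siRNA and 2.36 after Arid1a siRNAs (difference -1.12, edgeR adjusted p = 0.00734), and Etv4 by 3.902 and 2.81 (-1.09, edgeR adjusted p = 0.0102). Col15a1 and Dusp6 differed by -1.08 and -0.94 (edgeR adjusted p = 0.0106 and 0.00149), Maff by -0.93 (edgeR adjusted p = 0.0105) and Serpinf2 by -0.79 (edgeR adjusted p = 0.00636). A smaller response was not always a lower level with EGF. Has2 had means of 5.14 CPM in the controls, 12.4 with the siRNAs alone, 56.9 with EGF alone and 63.4 with both. Maff and Serpinf2 had 35.6 and 75.96 CPM with EGF alone and 37.1 and 154 with both. Dusp6 and Etv4 did end lower, at 142 and 90.7 CPM with EGF alone and 84.8 and 54.2 with both. Hbegf, Klf4 and Egr1 differed by -1.06, -1.02 and -0.80 (edgeR adjusted p = 0.00187, 0.00559 and 0.00187). Genes that EGF lowers changed less: Olfml2b by 2.27 and 1.18 on the log2 scale (difference 1.09, edgeR adjusted p = 0.00129), with Omp, Mnx1, Ndrg1 and Fgfr2 at differences of 1.25, 0.65, 0.57 and 0.53 (edgeR adjusted p = 0.0145, 0.0241, 0.0472 and 0.0455). Dll1, Cdkn1c and Vim differed by 0.64, 0.48 and 0.41 (edgeR adjusted p = 0.00177, 0.0464 and 0.0464). No group has the 4 libraries that a test for a single outlying library needs.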

How the results depend on the processing

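The number of called genes was 4677 to 6040 with 1 library left out and 5073 to 5811 in the other fits with the same threshold, and 184 of 214 genes followed, which the rule or the text names, kept their direction and their side of the threshold throughout. The other 30, among them Smarca4, Mki67, Fasn and Sox9, lost or gained a net call in some fit, and values for those that 1 left-out library decides stand beside them above, apart from 3. Cox5a (log2 -0.26, edgeR adjusted p = 0.0812) and Mcm7 (log2 -0.21, edgeR adjusted p = 0.0504) lost their calls without siCtrl replicate 1, and Col3a1 was called lower without siCtrl replicate 2 (log2 -0.74, edgeR adjusted p = 0.0472). Upper-quartile factors called Mcm3 higher (log2 0.14, edgeR adjusted p = 0.0442). Of 124 such genes placed in a class by their single changes, 66 kept it in every other fit. Over all tested genes the kept share was smaller in each class. It was 141 of 389 and 228 of 559 for genes moved together up and down. For cancelling genes that rose and fell with EGF it was 80 of 299 and 85 of 331. Among opposed genes with a net rise and fall, 96 of 351 and 49 of 174 kept their class. No net call among the 214 genes reversed its direction, and other genes were not checked for this. Upper-quartile factors moved the median net change of all genes from -0.0031 to 0.034 and the share of calls that are higher from 50.8% to 56.9%. They called 10 sterol genes higher and 5 TCA and respiratory chain genes lower, and a fit of only the 2 groups also called 5 of the latter lower. The replicate block left 105 opposed genes with a net fall and 2 higher TCA and respiratory chain genes. Sequential steps gave 231 and 291 genes moved together, 545 and 695 cancelling and 577 and 292 opposed with a net rise and fall when EGF came first, and 276, 217 and 107 genes lowered together, opposed with a net rise and opposed with a net fall when the siRNAs came first.

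Leaving out 1 library gave 175 to 336 cancelling genes that rose with EGF and 191 to 349 that fell with it, and 165 to 390 opposed genes with a net rise and 81 to 203 with a net fall. It gave 8 to 15 lower acinar enzymes, 3 to 5 higher S phase genes, 14 to 27 lower and 3 to 6 higher G2/M genes, 3 to 8 higher sterol genes, 7 to 13 higher fatty acid synthesis genes, and 4 to 12 lower and 2 to 5 higher TCA and respiratory chain genes.

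Only 2 replicate numbers are shared by the groups compared, and labels do not say that they mark a batch. Deviations from the group means, over 10142 genes, correlated at -0.53 and -0.70 for same-number pairs, so the numbers were not taken to pair the libraries. Deviations of the 2 controls mirror each other. The 0.70 for siCtrl replicate 1 with siArid1a_EGF replicate 2 is thus the -0.70 with its sign turned, not a further value. With siArid1a_EGF replicate 3, siCtrl replicate 1 correlated at -0.49. Variation that the labels do not name thus ran through both groups compared, and the fit of group means does not model it. Its source was not tested. With 2 control libraries, a deviation of either one moves every net change, and depth limits genes of a few CPM.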
